A study of Homo sapiens with 12 samples.

Results

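The 9 genes described here encode the JUN and FOS families of AP-1 factors and a pair of their close relatives: JUN, JUNB, JUND, FOS, FOSB, FOSL1, FOSL2, BATF3 and ATF3. They are 9 of 56508 gene symbols in the table, and each was found by its symbol. The set was chosen from measured values in these libraries, because JUN and ATF3 responded differently to the drug in the 2 lines. Their drug effects are therefore given as descriptions with no test, and tests on them are limited to the difference between the lines averaged over treatment. A filter of at least 1 in at least 3 libraries left 15456 genes for testing, and 8 of the 9 passed it. FOSL1 did not pass, FOSB passed only through the treated H211 libraries, and FOS and FOSL2 passed only through H211.

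The study profiled messenger RNA by sequencing in 2 established lines of human small cell lung cancer, H82 and H211, each grown with ORY-1001 at 1 µM or with vehicle as control. ORY-1001 inhibits LSD1, a histone demethylase that acts in repressor complexes, and the comparison asks what blocking it does to transcription in each line. Each of the 4 groups held 3 libraries, and nothing states that these came from separate cultures, so a p-value here reflects the spread among these libraries alone, part of which may be technical. Exposure is given as 7 days for the samples and as 10 days in the treatment protocol, which was not settled here.

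AP-1 is a dimer of basic leucine zipper proteins. JUN proteins pair with each other or with FOS proteins, whereas FOS proteins need a JUN partner, and the dimers bind a short palindrome in promoters and enhancers. FOS, FOSB, JUN, JUNB and ATF3 are early response genes, switched on within minutes to hours by growth factor, stress and MAP kinase signals, while JUND is usually present in resting cells. ATF3 and BATF3 are small members of the same superfamily that pair with JUN proteins and often act as repressors.

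JUN lies on chromosome 1 (58780788 to 58784327, minus strand) and has a single exon, and ATF3 lies on the other arm of that chromosome (212565334 to 212620777, plus strand), 65640 bases from BATF3 (212686418 to 212699985, minus strand). JUNB (12791496 to 12793315, plus strand) and JUND (18279760 to 18281622, minus strand) share chromosome 19 with FOSB (45467995 to 45475179, plus strand). FOS is on chromosome 14 (75278774 to 75282230, plus strand), FOSL1 on chromosome 11 (65892049 to 65900573, minus strand) and FOSL2 on chromosome 2 (28392448 to 28417312, plus strand). All positions are from GENCODE 29 on GRCh38.

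Start-site sequences of the members are shown as a description, and their relation to the levels was not tested. RefSeq promoter windows of GRCh38.p14, from 250 bases before to 50 after a start, were found for 7 of the 9 genes, with 2 windows for ATF3. JUN, ATF3 and JUND each held a match to TGACNTCA within the 250 bases before the start. That pattern includes TGACGTCA, the palindrome bound by ATF and CREB dimers, which was the match in JUND but not in JUN or ATF3. TGACNTCA was searched after the sequences had been seen. It occurs in 7.717% of the 35116 promoters of the table. The 30 bases around each match follow, 5′ to 3′ on the gene's own strand with the match in capitals, for JUN (chr1:58784096-58784125, minus strand), ATF3 (chr1:212565273-212565302, plus strand) and JUND (chr19:18281804-18281833, minus strand).
JUN: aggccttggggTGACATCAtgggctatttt
ATF3: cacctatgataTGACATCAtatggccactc
JUND: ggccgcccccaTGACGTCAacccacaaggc
JUN and ATF3 shared the 8 letters TGACATCA, at -67 to -60 and at -123 to -116 from the RefSeq start, and JUND held TGACGTCA, the cyclic AMP response element itself, at -200 to -193. GENCODE 29 starts JUN further upstream than RefSeq does, so that the JUN match lies inside its annotated first exon.

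JUNB, FOS and FOSB instead held a TATA box, TATAAA, near the start. The 30 bases around it are given for JUNB (chr19:12791443-12791472), FOS (chr14:75278783-75278812) and FOSB (chr19:45467954-45467983), all on the plus strand, with the box in capitals.
JUNB: tgactagcgcggTATAAAggcgtgtggctc
FOS: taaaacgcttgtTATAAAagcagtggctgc
FOSB: gggtcccgggcaTATAAAtacaggctggcg
The box began at -31 in JUNB, -33 in FOS and -30 in FOSB from the RefSeq start. GENCODE 29 also starts FOS upstream of RefSeq, so that the FOS box lies inside its annotated first exon. In the second ATF3 window it began at -230. It occurs in 11.53% of all promoters of the table. TGANTCA, the AP-1 site, was found in 1 of the 8 windows, at 5 to 11 bases after the FOSL2 start, against 7.709% of all promoters. TGACGTCA occurs in 1.848% of all promoters. The CArG box bound by SRF (1.293% of all promoters), TGACGCAA (0.513%) and TTGCATCA (0.866%) were found in none of the 8 windows. The windows end 250 bases before the start, so sites further upstream were not searched, and absence here says nothing of them. Every motif was searched on both strands, TGACNTCA includes TGACGTCA, and a match is a description of letters, not of binding.

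The longer stretches before the first annotated exon are given for ATF3 and JUNB, whose patterns over the libraries were alike, and for JUND, whose pattern differed from theirs, as ATF3 (chr1:212565157-212565333, plus strand), JUNB (chr19:12791236-12791485, plus strand) and JUND (chr19:18281623-18281872, minus strand), with the matches named above in capitals.
ATF3: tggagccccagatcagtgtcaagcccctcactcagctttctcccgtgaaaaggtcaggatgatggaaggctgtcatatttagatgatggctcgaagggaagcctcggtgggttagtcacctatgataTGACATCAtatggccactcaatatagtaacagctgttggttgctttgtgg
JUNB: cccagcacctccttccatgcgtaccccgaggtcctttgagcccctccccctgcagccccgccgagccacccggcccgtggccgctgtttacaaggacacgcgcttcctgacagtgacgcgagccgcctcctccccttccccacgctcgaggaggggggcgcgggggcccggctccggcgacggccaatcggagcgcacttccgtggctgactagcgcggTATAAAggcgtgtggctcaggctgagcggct
JUND: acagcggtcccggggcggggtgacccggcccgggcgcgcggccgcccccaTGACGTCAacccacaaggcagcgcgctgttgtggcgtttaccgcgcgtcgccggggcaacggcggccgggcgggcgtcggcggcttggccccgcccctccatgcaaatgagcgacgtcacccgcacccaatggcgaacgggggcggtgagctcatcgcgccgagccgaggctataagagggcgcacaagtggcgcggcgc
The ATF3 stretch is from its first window, and it shares none of the searched motifs with the JUNB stretch. The second ATF3 window holds TATAAA, as JUNB does, at -230. Levels are given per gene and do not show which ATF3 start was used. The patterns of ATF3 and JUNB over the libraries, each centred on its own mean, are described later. A link between them and these letters was not tested.

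Levels are in the deposited unit, transcript abundance per length (TPM) rescaled between libraries, so that levels of different genes can be set side by side. Column totals ran from 967415 to 1111988, and the depth behind the values is unknown. In bulk samples such as these, fewer cells of a type and less RNA per cell cannot be told apart. NEUROD1, a neuronal factor, was at 122.9 to 139 in H82 and 1.4 to 2.1 in H211, over control and treated libraries. POU2F3, the tuft-cell factor, was at 245.7 to 285 in H211 and 1.28 to 2.72 in H82. The sum over 10 line identity markers, which include both, was 420 to 435 in H82 controls and 318 to 322 in treated H82. In H211 it was 530 to 542 in controls and 497 to 522 with the drug. Among them CHGA averaged 98.1 and 36.7 in H82 controls and treated H82, and YAP1 0.914 and 5.69 in H211. ASCL2 averaged 176 and 181 in the same H211 groups. Summed over 31 blood cell markers, 3 libraries stood apart, H82 ORY-1001 replicate 3 (239) and H211 control replicates 1 (223) and 2 (363), against 44.3 to 77.9 in the other 9. Between 2 and 17 of the 31 were at 0 in a library. Lysozyme (LYZ) or myeloperoxidase (MPO) reached 5 in these 3 and in another 3, namely replicates 1 and 2 of treated H82 and replicate 3 of treated H211. All H82 treated libraries and no H82 control were among them, so in H82 the drug cannot be told apart from whatever set these libraries apart. Hemoglobin beta (HBB) was at 0 in 10 of the 12 libraries, but other globin genes were not. HBE1 reached 88.1 (H82 ORY-1001 replicate 3), 78.8 and 71.3 (H211 control replicates 1 and 2). HBG2 reached 53.0, 47.4 and 40.6 in the same libraries. H82 controls held HBE1 between 14.7 and 18.5 and HBG2 between 22.4 and 28.2. Treated H211 held HBE1 between 0.141 and 14.0. In treated H82, HBE1 was low in replicates 1 (2.08) and 2 (1.95). Over 11 fibroblast and endothelial markers the sum was 2.07 to 4.67 in H82, 7.6 to 9.55 in H211 controls and 65.5 to 72.3 in treated H211. Nearly all of the last was decorin (DCN, 61.5 to 68.1), while COL1A1 was at 0.914 to 1.27 and PECAM1 at 0 to 0.138 there. What part DCN-expressing cells had in the H211 results was not tested.

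Without the drug, the 2 lines differed in which member was abundant. JUND led in both, but at 94.7 ± 1.85 (SD, n = 3) in H82 against 33.3 ± 1.54 in H211. FOS transcripts were nearly absent from H82 and were present in H211. In H82 controls JUND was followed by ATF3 (20.0 ± 1.09) and JUNB (18.7 ± 0.565), whose libraries overlapped, then BATF3 (12.2 ± 0.361) and JUN (8.24 ± 0.322). The 4 FOS family genes averaged 0.0922 to 0.506 there, each overlapping the next in the order. In H211 controls JUNB (13.7 ± 0.723), ATF3 (12.5 ± 0.785), JUN (11.9 ± 0.671) and FOS (10.3 ± 6.13) followed JUND, and each of these overlapped the next. FOSL2 (4.53 ± 0.581) and BATF3 (3.55 ± 0.607) came after them, and FOSL1 (0.501 ± 0.0702) and FOSB (0.182 ± 0.184) were lowest.

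**Figure D1:**
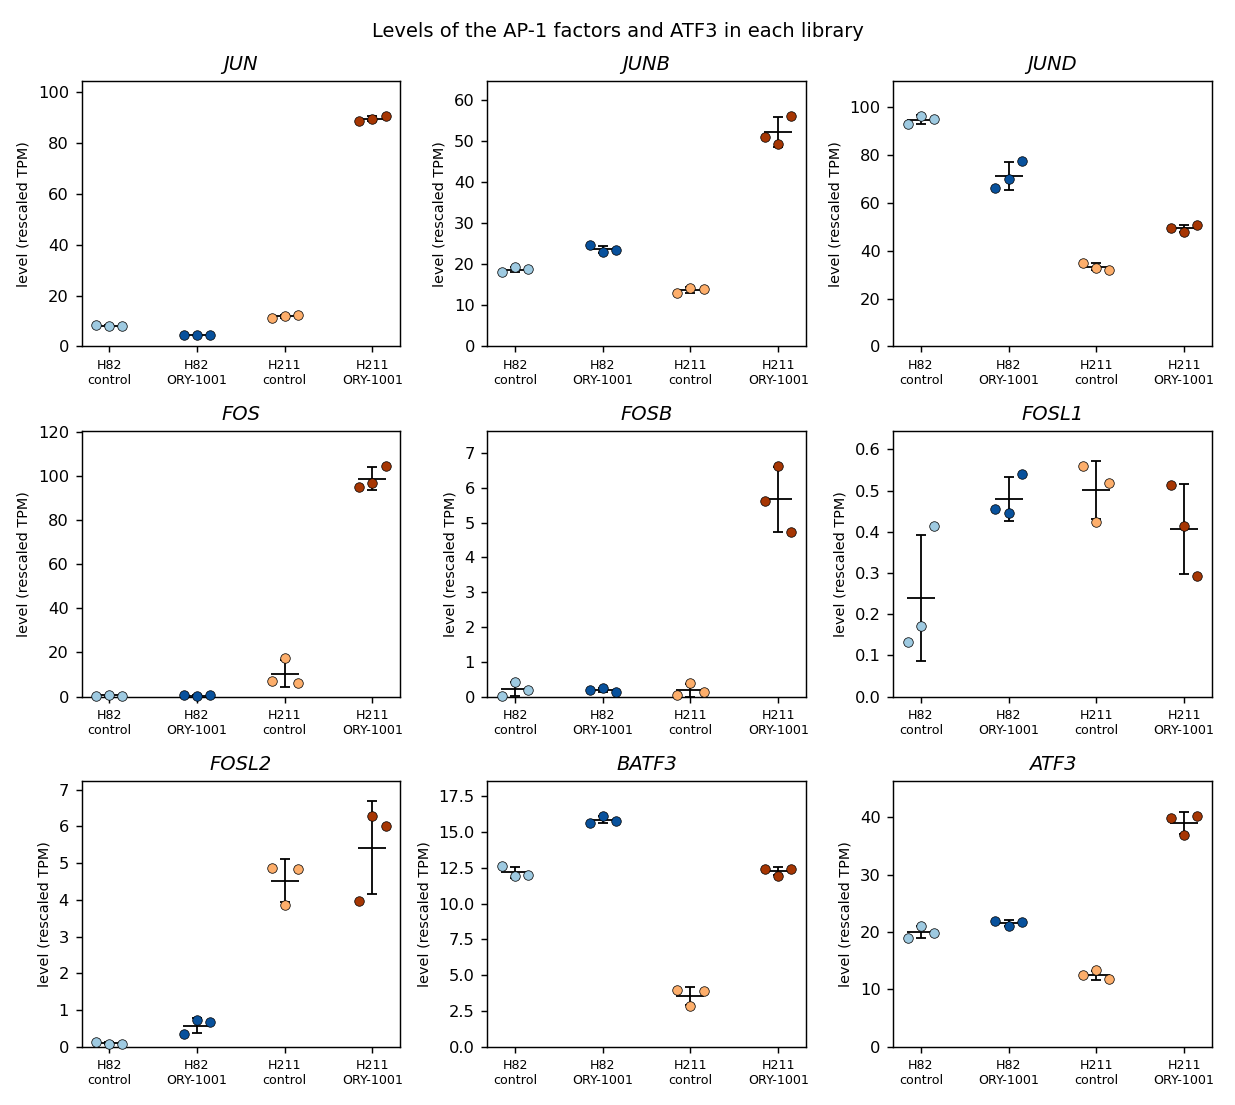
Level of each of the 9 genes in every library (rescaled TPM, vertical axis from 0) in the 4 groups, 3 points per group with the mean and SD as black lines. JUN, JUNB, FOS, FOSB and ATF3 stand highest in the 3 treated H211 libraries, whereas JUND is highest in H82 controls and FOSL1 stays under 0.6.

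With ORY-1001, most members stood at much higher levels in H211, and in H82 the differences were small and in both directions. In treated H211 FOS (98.8 ± 5.14) and JUN (89.6 ± 1.09) took the first places. JUNB (52.1 ± 3.55) and JUND (49.3 ± 1.63), which overlapped, and ATF3 (39.0 ± 1.86) came next. In treated H82 JUND still led at 71.2 ± 5.91, followed without overlap by JUNB (23.6 ± 0.817), ATF3 (21.6 ± 0.513), BATF3 (15.8 ± 0.247) and JUN (4.6 ± 0.0836). Of the 8 genes that passed the filter, 3 lay above and 2 below all controls in every treated H82 library, where over all genes tested 23.6% lay above and 28.7% below. In H211, 7 of the 8 lay above and 0 below, where over all genes 17.0% lay above and 18.4% below. The members were chosen on these differences, so nothing is read from these counts.

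JUN, the founding partner of AP-1, was at 8.57, 8.22 and 7.93 in H82 controls and at 4.58, 4.53 and 4.7 in treated H82. Every treated library lay below every control, at 1.79-fold lower on average, a log2 difference of -0.72 (SE 0.054) in log2(level + 1). In H211 its level was 11.2, 11.8 and 12.5 in controls and 88.7, 89.3 and 90.8 with ORY-1001. All treated libraries lay far above all controls, 7.56-fold on average, with a log2 difference of 2.82 (SE 0.054). The drug effect in H211 exceeded that in H82 by 3.54 (95% interval 3.37 to 3.71) on the log2 scale. JUN was chosen on this difference, so its interval is a description and not a test. Log2 differences here are taken after adding 1 to the level, which understates changes of genes with low levels. Leaving out the 3 libraries with high blood marker sums gave -0.73 in H82 and 2.74 in H211 for JUN, and leaving out the 6 with LYZ or MPO gave 2.73 in H211, where no treated H82 library was left.

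JUNB, a JUN relative that can restrain JUN activity in some settings, was higher with the drug in both lines. Its H82 levels were 18.1, 19.2 and 18.7 in controls and 24.6, 23.0 and 23.3 with ORY-1001. The groups did not overlap, and the difference was small, 1.26-fold or 0.32 on the log2 scale (SE 0.059). In H211 JUNB went from 12.9, 14.2 and 14.0 to 50.98, 49.3 and 56.1. The treated libraries were 3.8-fold above the controls without overlap, a log2 difference of 1.85 (SE 0.059). The 2 drug effects on JUNB differed by 1.53 (interval 1.34 to 1.71).

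JUND, the JUN family member of resting cells, was lower with the drug in H82 and higher in H211. In H82 the controls held 92.8, 96.4 and 95.02 and the treated libraries 66.0, 69.97 and 77.7. Its treated libraries were spread more widely than its controls and all lay below them, 1.33-fold on average, with a log2 difference of -0.41 (SE 0.058). In H211 the levels were 35.0, 33.0 and 32.0 without and 49.4, 47.6 and 50.9 with the drug. These groups did not overlap either, with treated libraries 1.48-fold higher, a log2 difference of 0.55 (SE 0.058). H82 ORY-1001 replicate 3, where JUND was highest among the treated libraries of that line, also had the high blood marker sum. Leaving out the 3 libraries with such sums moved the JUND difference to -0.47 in H82 and to 0.61 in H211.

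FOS, the archetypal early response gene, was at 0.339, 0.702 and 0.477 in H82 controls and at 0.501, 0.309 and 0.63 in treated H82. These values overlapped and were all under 1, with a log2 difference of -0.02 (interval -0.62 to 0.57). In H211 FOS stood at 7.1, 17.3 and 6.37 in controls, and the treated libraries held 94.99, 96.8 and 105. Control replicate 2 stood above the other controls, and every treated library was far above it. That library also held LYZ at 23.0, S100A8 at 58.1 and TYROBP at 10.9, and what part this had in its FOS level was not tested. The FOS difference in H211 was 9.62-fold between means, 3.27 on the log2 scale (SE 0.271), and 3.69 without control replicate 2. It was 3.72 without the 6 libraries with LYZ or MPO. The 2 drug effects on FOS differed by 3.3 (interval 2.46 to 4.14).

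FOSB, a FOS paralog of early and of chronic responses, was under 0.5 in all groups but treated H211. Its levels there were 5.62, 6.63 and 4.74, against 0.0318, 0.388 and 0.127 in H211 controls. The treated libraries were 31.1-fold above the controls between means, a fold that rests on control levels well under 1, and the log2 difference was 2.5 (SE 0.156). The H82 controls held 0.0183, 0.421 and 0.184 and the treated H82 libraries 0.179, 0.244 and 0.129. Those groups overlapped, with a log2 difference of -0.02 (SE 0.156). FOSB passed the filter only through the group in which it was high, so that a difference had to appear.

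FOSL1 and FOSL2, the FRA proteins, did not share the pattern of FOS. FOSL1 lay between 0.132 and 0.56 in all 12 libraries. Its treated H82 libraries (0.455, 0.445 and 0.541) lay above its H82 controls (0.132, 0.171 and 0.414), and in H211 the groups overlapped. FOSL2 was at 0.123, 0.0748 and 0.0784 in H82 controls and at 0.334, 0.739 and 0.661 in treated H82. The groups did not overlap, but every level was under 1, and the log2 difference of 0.52 (SE 0.156) varied with the constant added, from 1.77 with 0.1 to 0.13 with 5. In H211 control levels of FOSL2 were 4.87, 3.85 and 4.85 and treated levels 3.98, 6.29 and 6.01, which overlapped (0.2, interval -0.14 to 0.55). Among members that passed the filter, FOSL2 alone had a drug effect that was not larger in H211 (difference -0.32, interval -0.8 to 0.17).

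BATF3, a factor of dendritic and T cell programs that lacks an activation domain, was higher with the drug in both lines. Its level went from 12.6, 11.9 and 11.998 to 15.7, 16.1 and 15.8 in H82, which did not overlap (1.3-fold, log2 difference 0.35, SE 0.087). In H211 it went from 3.93, 2.85 and 3.87 to 12.4, 11.9 and 12.4, 3.45-fold higher without overlap (log2 difference 1.55, SE 0.087). Treated H211 thus reached the BATF3 level of untreated H82, with 11.9 to 12.4 against 11.9 to 12.6. The 2 drug effects differed by 1.2 (interval 0.93 to 1.47).

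ATF3, a stress-induced bZIP repressor, differed little in H82, where controls were at 18.9, 21.1 and 19.9 and treated libraries at 22.0, 21.0 and 21.8. The groups overlapped, and the difference of 0.11 on the log2 scale had an interval of -0.02 to 0.24. In H211 control levels of ATF3 were 12.5, 13.3 and 11.7 and treated levels 39.9, 36.9 and 40.2. Here all treated libraries lay above all controls, 3.12-fold on average, with a log2 difference of 1.57 (SE 0.06). H211 controls lay below every H82 library and treated H211 above all of them. The 2 drug effects on ATF3 differed by 1.46 (interval 1.27 to 1.65). Without the 6 libraries with LYZ or MPO the H211 difference was 1.63.

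**Figure D2:**
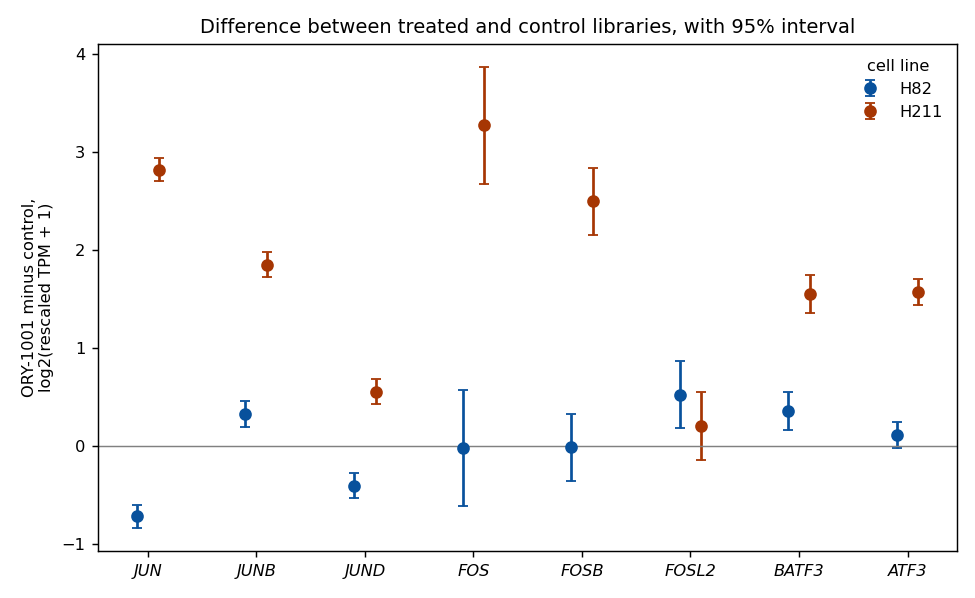
Difference between ORY-1001 and control libraries in log2(rescaled TPM + 1) for the 8 genes that passed the filter, with 95% intervals from limma, in H82 (blue) and H211 (brown). The intervals show spread and are no test, since the members were chosen on these differences. JUN is at -0.72 in H82 and 2.82 in H211, ATF3 at 0.11 and 1.57, and FOSL2 is the gene whose H211 point is not above its H82 point.

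In H211 the 9-gene sum was led by JUND without the drug and by FOS and JUN with it. Summed levels were 155 ± 3.36 in H82 controls, 139 ± 5.8 in treated H82, 90.5 ± 5.87 in H211 controls and 353 ± 11.8 in treated H211. JUND made up 61.2% ± 0.246 (SD, n = 3) of the sum in H82 controls and 51.3% ± 2.15 with the drug. In H211 its share was 37.0% ± 2.93 and 14.0% ± 0.239. JUN was 5.32% ± 0.288 and 3.32% ± 0.0889 of the sum in H82, and 13.1% ± 1.27 and 25.4% ± 0.561 in H211. FOS was 0.325% ± 0.111 and 0.345% ± 0.107 in H82, and 11.1% ± 5.85 and 28.02% ± 0.586 in H211. The shares of JUNB and ATF3 varied less, with JUNB between 11.9% and 18.3% and ATF3 between 10.7% and 16.4% over all 12 libraries. These are shares of transcript levels and carry no test, since the members were chosen on the drug effects.

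**Figure D3:**
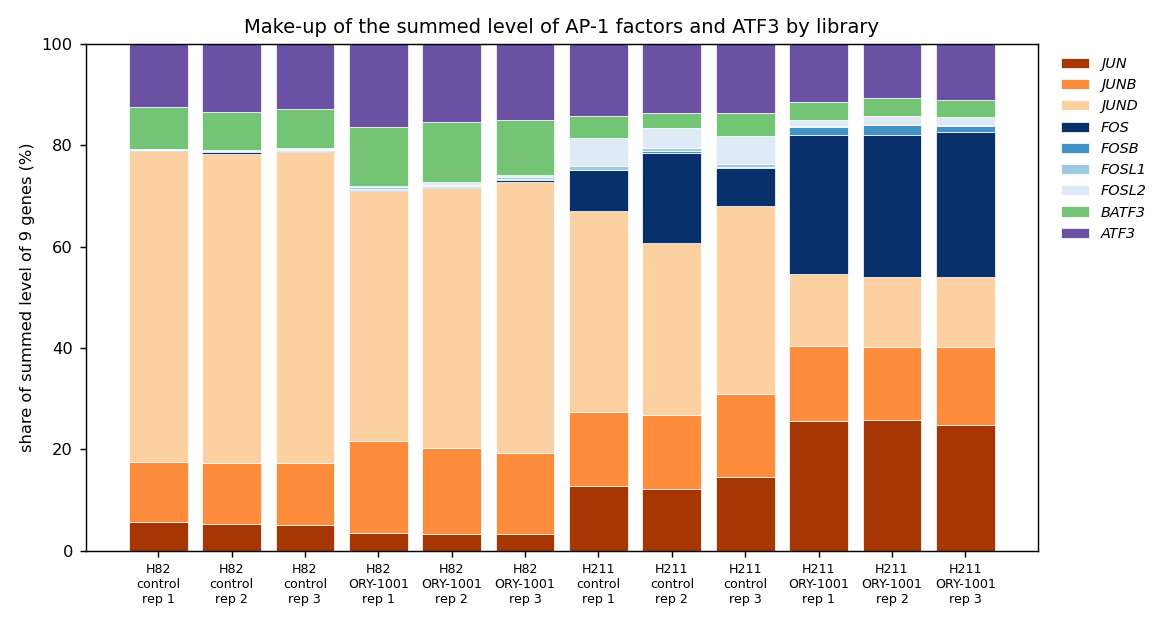
Share (%) of each of the 9 genes in their summed level, 1 stacked bar per library. JUND (light orange) takes 60.9% to 61.4% in H82 controls and 13.8% to 14.3% in treated H211, where FOS (dark blue) takes 27.4% to 28.6% and JUN (brown) 24.8% to 25.9%.

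FOS proteins need a JUN partner, so the 2 families were also summed apart. The JUN family stood at 122 ± 2.22 in H82 controls, 99.5 ± 5.51 in treated H82, 58.9 ± 0.272 in H211 controls and 191 ± 6.02 in treated H211. The FOS family stood at 1.05 ± 0.39, 1.72 ± 0.247, 15.5 ± 5.66 and 110.3 ± 5.32 in the same groups. JUN family transcripts exceeded FOS family transcripts by 90.4 to 195 times in H82 controls and by 53.9 to 64.8 times in treated H82. In H211 the ratio was 2.68 to 4.94 in controls and 1.69 to 1.8 with ORY-1001. The 4 groups did not overlap in this ratio, whose H82 values rest on FOS family levels of 0.612 to 1.96.

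The lines were tested against each other on the mean of control and treated libraries. In this design of equal groups the error of that average is independent of the error of the drug contrasts that chose the members, but its size includes the treated levels. JUN, JUNB, JUND, BATF3 and ATF3 passed the filter in both lines and could be tested. By limma at an adjusted p under 0.05 (Benjamini-Hochberg) 2 of these 5 were higher in H211 and 2 lower, where 42.2% of all genes tested were higher and 43.7% lower. Most genes differed between these lines, so such counts are near what all genes show. JUN was higher in H211 (log2 difference 2.25, SE 0.038, adjusted p = 1.62e-13), as was JUNB (0.34, SE 0.042, adjusted p = 8.47e-06). Both averages depend on the treated libraries, whose values chose the members. In controls alone JUN differed by 0.48 and JUNB by -0.42, so these p-values concern the average and not the untreated lines. JUND was lower in H211 (log2 difference -1.0, SE 0.041, adjusted p = 2.99e-10), as was BATF3 (-0.94, SE 0.062, adjusted p = 2.35e-08). Limma tested these differences of mean log2 values. The ratios of mean levels were not tested and need not match them. They were 7.9-fold for JUN and 1.56-fold for JUNB, higher in H211, and 2.01-fold for JUND and 1.77-fold for BATF3, lower in H211. ATF3 did not pass, at 0.09 (interval 0.0003 to 0.187, adjusted p = 0.0573). Other settings, named in the closing section, took ATF3 past the threshold in the same direction. FOS, FOSB and FOSL2 passed the filter only through H211 and had to differ, so their differences of 4.43, 1.23 and 2.17 on the log2 scale are descriptions with no test.

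The average rests mainly on the treated H211 libraries for JUN, FOS and FOSB, and the order of the lines in JUNB and ATF3 turns between controls and treated libraries. Control libraries alone are therefore given as a description, since they are one arm of the drug effects that chose the members. Over all genes tested, limma called 39.7% higher and 40.8% lower in H211 controls, and nothing is read from this for the members. JUN was 1.44-fold higher in H211 controls than in H82 controls, a log2 difference of 0.48 (SE 0.054). FOS was 20.3-fold higher (2.78, SE 0.271), and FOSL2 49.1-fold, from H82 levels near 0.1 (2.33, SE 0.156). Without the 3 libraries with high blood marker sums FOS differed by 2.3. JUNB (-0.42, SE 0.059) and ATF3 (-0.64, SE 0.06) were lower in H211 controls, opposite to their order in the treated libraries. JUND (-1.48, SE 0.058) and BATF3 (-1.54, SE 0.087) were also lower. FOSB overlapped between the lines in controls (-0.03, interval -0.37 to 0.31). FOS and FOSL2 passed the filter only through H211, so nothing is read from their differences.

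The genes with the pattern nearest to JUN and to ATF3 were found by the root mean square difference of centred log2(level + 1) over the 12 libraries, among 11347 genes with a mean of at least 5 in some group. The measure uses the values that chose the members and is a description. For JUN they were IPCEF1 (0.33), the neurotensin gene NTS (0.41), the neuropeptide Y gene NPY (0.43), the butyrophilin BTN3A3 (0.43) and CYP26A1, an enzyme that degrades retinoic acid (0.44). All 5 averaged at least 7.07 in treated H211 and under 0.5 in both H82 groups. At such low levels a fall like that of JUN in treated H82 could not have been seen in them. Among the other members FOSB came nearest to JUN (0.6, rank 25), and ATF3 was at rank 1514 (1.2).

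ATF3 lay nearest to SELENOW, a selenoprotein (0.18), and to JUNB (0.18, rank 2). These were followed by IFI27, an interferon-induced gene, MXRA8, a cell adhesion protein, and PLK2, a polo-like kinase. SELENOW averaged 61.6 ± 3.62 in H82 controls, 74.5 ± 5.3 in treated H82, 49.2 ± 4.69 in H211 controls and 112 ± 3.02 in treated H211, the same order of groups as ATF3. FOSB lay nearest to the early response genes IER2 (0.18), EGR2 (0.22) and DUSP1 (0.24). JUNB lay nearest to RHOB (0.16) and ATF3 (0.18), and JUND to ECHDC2 (0.12). Genes near FOS were further off, from COL15A1 (0.59) to EGR1 (0.79) at rank 4.

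**Figure D4:**
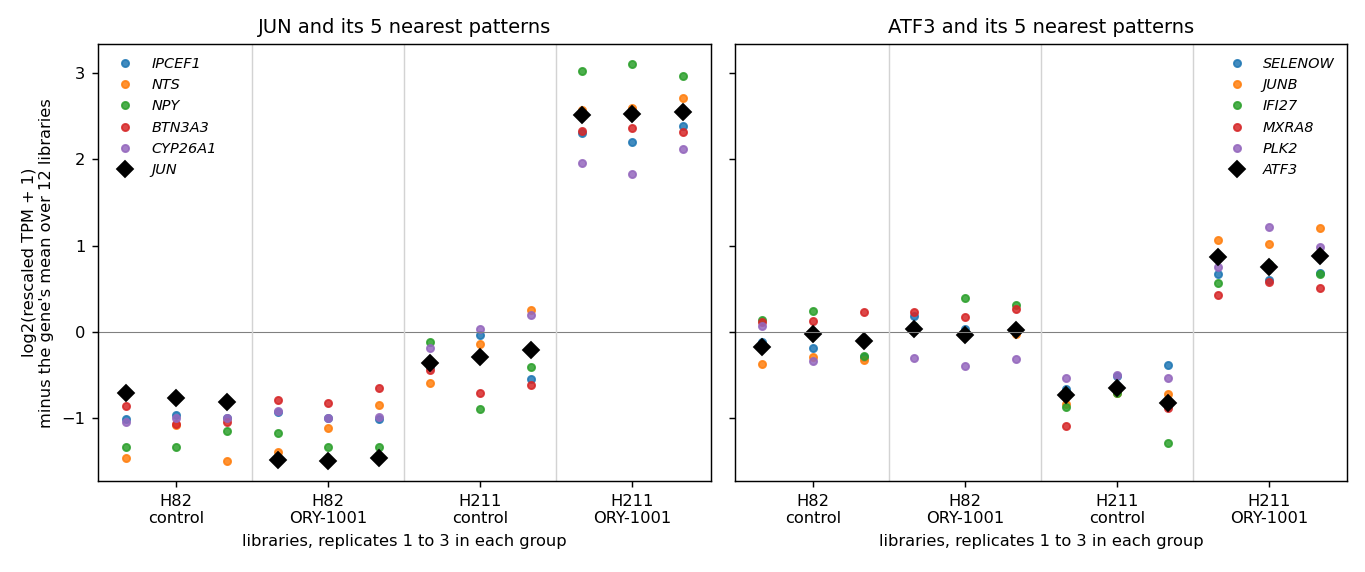
Log2(rescaled TPM + 1) minus each gene's mean over the 12 libraries, 1 point per gene and library in 4 groups, for JUN (left, black diamonds) and ATF3 (right, black diamonds) with their 5 nearest genes in colour. In treated H82 all 3 JUN points lie below those of its 5 neighbours, whose levels are too low in H82 to show a fall. ATF3 stays close to its own neighbours in all groups.

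Genes around AP-1 were taken from lists that group other bZIP partners, kinases, phosphatases, upstream factors, JUN turnover, targets and other early response genes. These lists were chosen with earlier results of these data known, so their counts and p-values are not independent evidence of a pattern. Over all genes tested, limma called 19.1% higher and 23.9% lower with the drug in H82, and 8.95% higher and 9.61% lower in H211, with medians of -0.016 and -0.0021. Of the H211 calls 48.2% were upward, and 32.5% with totals that leave out mitochondrial genes. For the difference of the drug effects 17.8% were called more upward and 14.3% more downward in H211. Of 19 other early response genes tested, 10 rose and 2 fell in H211 (median 0.5), and 3 rose and 4 fell in H82 (median -0.05). The 2 falls in H211 became 1 when replicate 1 or 2 of the H211 controls or replicate 1 of treated H211 was left out, and 0 without the 6 libraries with LYZ or MPO. The 4 falls in H82 became 1 or 2 without H82 control replicate 2 or 3 or any 1 of the H82 treated libraries. The effect was more upward in H211 for 9 of the 19 and more downward for 0, or 1 without H82 ORY-1001 replicate 3 or H211 ORY-1001 replicate 2. EGR1, a zinc finger factor often induced with FOS, rose 27.7-fold in H211 (adjusted p = 2.62e-07), as did IER2 4.91-fold, from 20.7, 21.0 and 19.7 to 102.5, 101.2 and 97.6 (adjusted p = 4.26e-11). In H82 KLF6 rose 1.35-fold (adjusted p = 0.000758) and CSRNP1 fell 1.32-fold (adjusted p = 0.00684).

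Other bZIP genes fell in H82 more often than they rose. Of 26 tested, 13 fell and 1 rose (median -0.24), and in H211 5 fell and 3 rose (median -0.02). The 1 rise in H82 became 0 when replicate 2 of the H82 controls or replicate 1 or 3 of treated H82 was left out. The 3 rises in H211 became 1 without H211 control replicate 3, and the 5 falls became 3 without the 3 libraries with high blood marker sums. CEBPG fell 1.77-fold in H82 (adjusted p = 5.69e-07) and ATF6B, an unfolded protein response factor, 1.58-fold (adjusted p = 9.86e-07). In H211 ATF6B fell 1.25-fold (adjusted p = 0.000535) and MAFG 1.32-fold (adjusted p = 0.000583), and the MAFG call was lost without the 3 libraries with high blood marker sums (0.0663). The drug effects differed between the lines for DDIT3, the stress factor CHOP, which averaged 15.2 and 6.29 in H82 and 13.4 and 13.5 in H211 (difference 1.17, adjusted p = 0.000117).

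Of 30 kinases and scaffolds that feed AP-1, 10 fell and 2 rose in H82 (median -0.11), and 2 fell and 1 rose in H211 (median -0.03). The 1 rise in H211 became 0 without any 1 library other than H82 control replicate 2. The 2 rises in H82 became 1 without any 1 H82 control, H82 ORY-1001 replicate 1, H211 control replicate 1 or H211 ORY-1001 replicate 3. The JNK scaffolds MAPK8IP2 and MAPK8IP1 fell 2.98-fold and 2.45-fold in H82 (adjusted p = 1.52e-06 and 2.9e-06). In H211 RPS6KA5 and the p38 kinase MAPK14 fell 1.4-fold and 1.27-fold (adjusted p = 0.00552 and 0.0086), and both calls were lost without the 3 libraries with high blood marker sums (0.184 and 0.188). Of 8 MAP kinase phosphatases 3 rose and 0 fell in H211, and 2 rose and 1 fell in H82. The 1 fall became 0 without H82 control replicate 2 or 3 or H82 ORY-1001 replicate 1 or 2. DUSP1, an early response phosphatase of p38 and JNK, was at 4.12, 8.24 and 4.85 in H211 controls and rose to 24.8, 27.5 and 24.9 (4.48-fold, adjusted p = 1.5e-05), and DUSP10 rose 1.66-fold (adjusted p = 0.000136). In H82 DUSP9 rose 1.78-fold (adjusted p = 4.53e-05) and DUSP5 1.8-fold (adjusted p = 0.00689, and 0.108 with 0.1 added in place of 1).

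Of 10 tested factors that act on the FOS promoter, 3 fell and 0 rose in H82, among them CREB1 (1.35-fold, adjusted p = 0.000832) and ELK1 (1.22-fold, adjusted p = 0.00646). In H211 3 fell and 1 rose, with SRF 1.19-fold higher (adjusted p = 0.00413) and its coactivator MKL2 1.45-fold lower (adjusted p = 0.00997). Both were lost without the 3 libraries with high blood marker sums (0.0596 and 0.248), as were all 3 falls, and SRF also with totals that leave out mitochondrial genes (0.0595). Of 8 genes of JUN turnover 2 fell and 1 rose in H82, with the ligase ITCH 1.3-fold and DET1 1.9-fold lower (adjusted p = 6.32e-05 and 0.000173). The 1 rise became 2 without H82 ORY-1001 replicate 3. In H211 2 fell and 0 rose, ITCH 1.14-fold and the kinase CSK 1.18-fold (adjusted p = 0.0154 and 0.0296). The 2 falls became 0 without H211 control replicate 1 (ITCH 0.0505, CSK 0.11), without H211 ORY-1001 replicate 1 (0.0565 and 0.0754) or without the 3 libraries with high blood marker sums (0.118 and 0.179). The CSK call was also lost without either other H211 ORY-1001 library (0.0549 and 0.0811), with no filter on low values (0.0552) and with only the H211 groups in the fit (0.0535).

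Of 35 AP-1 target genes listed, 16 could be tested. In H211 3 rose and 3 fell (median -0.0025), and in H82 3 rose and 5 fell (median 0.1). The 3 rises in H82 became 5 without the 3 libraries with high blood marker sums, and the 3 falls in H211 became 0 without the 6 with LYZ or MPO. VIM, the vimentin gene, was at 6.27, 9.21 and 5.25 in H211 controls and rose to 49.3, 54.1 and 53.2 (7.56-fold, adjusted p = 1.21e-07). CYR61, a matricellular protein, rose 5.46-fold in H211 (adjusted p = 3.06e-07). In H82 FN1, fibronectin, fell 3.58-fold (adjusted p = 0.000141) and the membrane linker EZR 1.21-fold (adjusted p = 0.000104). VIM and DCN, both also made by fibroblasts, were high in the same treated H211 libraries as JUN and FOS, and their part in those levels was not tested. No gene of the target list is read here as a measure of AP-1 activity.

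**Figure D5:**
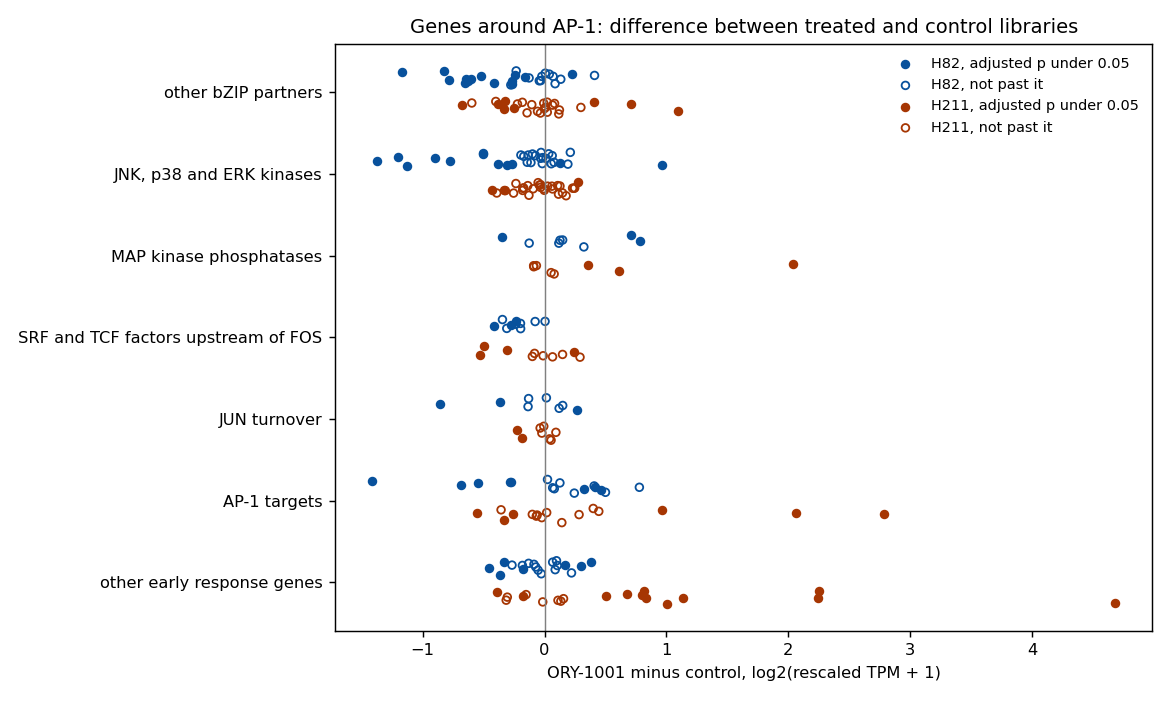
Difference between ORY-1001 and control libraries in log2(rescaled TPM + 1) for each tested gene of the 7 lists around AP-1, with H82 in blue and H211 in brown, filled where the adjusted p was under 0.05. In H211 most points lie near 0, and EGR1 (4.68), VIM (2.78), IER2 (2.24), CYR61 (2.06) and DUSP1 (2.03) are among the points beyond 2.

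Several of these genes differed between the lines over control and treated libraries together, 2 named from each list. Higher in H211 were DUSP2 (182-fold), KLF4 (71.6-fold), the p38 delta kinase MAPK13 (71.2-fold), MEF2C (25.7-fold), ATF5 (6.9-fold), FBXW7, the ligase subunit that targets JUN (5.54-fold), KLF10 (4.75-fold), MKL2 (4.74-fold) and MAFG (1.88-fold). Higher in H82 were MAPK8IP2 (19.3-fold), TIMP1 (15.0-fold), DET1 (9.69-fold), DUSP9 (5.02-fold) and GADD45A (2.62-fold). These folds are ratios of mean levels and were not tested. For DUSP2, KLF4, MAPK13, MEF2C and MAPK8IP2 they were well above what the differences in log2(level + 1) give (4.74, 4.57, 5.04, 3.71 and -2.54). The same held for DET1 (-2.55) and DUSP9 (-1.63). That happens where the level is low in 1 line. Such a gene can pass the filter through the other line alone and then has to differ, so these are descriptions with no test. By limma the other genes named here had an adjusted p of 7.63e-10 or less.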

How the data were processed

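RNA-seq values of 12 libraries in 4 groups of 3 were read from a table with 1 column per library. The authors' deposited values are a signal, TPM rescaled between libraries, since column totals differ (967415 to 1111988), where plain TPM had been planned for, and the planned tests on a log scale were used. The tools named, per the submitters' processing notes, are Salmon 1.1.0, sleuth 0.30.0, R 4.0.4, DESeq2, STAR 2.5.2b, Trimmomatic 0.36 and Subread 1.5.2 with featureCounts, and the build is hg38. Their roles, order and the rescaling are not given in the sources used here. Of 56508 symbols, 24415 were at 0 in every library and 27 rows held dates in place of symbols, and 0 columns lacked a sample.

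Values were analysed as log2(value + 1) with limma 3.58.1 in R 4.3.3, for genes at 1 or more in at least 3 libraries, in 1 fit of all 4 groups with trended empirical Bayes variances. P-values were adjusted by Benjamini-Hochberg over all 15456 genes tested and called at 0.05. The scripts were tested on simulated data. A fold is a ratio of mean levels. The members and lists were chosen with earlier results of these data known. From the JUN turnover list, 1 gene is not reported here. From each list, up to 2 called genes with the smallest p were named in the averaged line difference, each drug effect and their difference, with a mean of at least 5 in some group. Alternatives were other pseudocounts, filters, scalings, variance models and fits, a replicate block, and leaving out libraries. Leaving out the 3 libraries with high blood marker sums was planned, and leaving out the 6 with LYZ or MPO at 5 or more was chosen after seeing the data. Sequences are from RefSeq tables of GRCh38.p14 and gene positions from GENCODE 29.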

Additional observations from a re-analysis of the deposited data

Results flagged for a closer look

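JUN and JUND lay on opposite sides of their controls in the 2 lines, with every treated library below the controls in H82 and above them in H211. Over all genes tested, 28.7% lay below in H82 and 17.0% above in H211. The share of genes with both was not counted. The drug effect in H211 exceeded that in H82 by 3.54 on the log2 scale for JUN and by 0.96 for JUND. These differences were not tested, because the members were chosen on them.

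Among the genes around AP-1, 14 are named whose drug effects differed between the lines by limma (adjusted p, Benjamini-Hochberg). They are the 2 called genes with the smallest p in each list, so their number was set by that rule. Over all genes tested, 17.8% were called more upward and 14.3% more downward in H211. The effect was more upward in H211 for EGR1 (4.95, adjusted p = 2.86e-06), VIM (2.37, 7.5e-06), DUSP1 (2.16, 8.38e-05), IER2 (2.07, 4.98e-09) and CYR61 (1.98, 6.78e-06), each of which rose in H211. The JNK scaffolds MAPK8IP2 (1.61, 1.42e-05) and MAPK8IP1 (1.3, 3.05e-05), with DDIT3 (1.17, 0.000117), DET1 (0.84, 0.00342) and CEBPG (0.78, 1.65e-05), had lower levels with the drug in H82. Smaller differences were found for CREB1 (0.48, 0.00468), SRF (0.32, 0.00354) and ITCH (0.18, 0.046). The ITCH call was lost without the 3 libraries with high blood marker sums (adjusted p = 0.311) and without any 1 library other than H82 ORY-1001 replicate 1. CREB1 lost its call without the same 3 libraries (adjusted p = 0.0516). DUSP9 was the named gene whose effect was more downward in H211 (-0.63, adjusted p = 0.00197).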

How the results depend on the processing

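JUN, JUNB, JUND and BATF3 kept their direction and call in the averaged line difference under every alternative run. ATF3, averaged over treatment, passed the threshold with a pseudocount of 5 (0.11, adjusted p = 0.0143), median-of-ratios scaling (0.12, adjusted p = 0.0212), totals without mitochondrial genes (0.24, adjusted p = 0.00042) and array weights (0.103, adjusted p = 0.0315). It ranged from 0.073 to 0.115 with 1 library left out, and passed without H82 control replicate 2 (adjusted p = 0.0326), H211 control replicate 3 (0.0251) or H211 ORY-1001 replicate 2 (0.0314). The causes were not tested. FOSB in controls ranged from -0.15 to 0.095 and was positive without H82 control replicate 2 (0.095) or H211 control replicate 1 (0.064). Its drug difference in H211 was 4.55 with 0.1 added and 1.04 with 5 added, and that in H82 was 0.11 with 0.1 added. Within its own family alone JUN made up 6.77%, 4.64%, 20.1% and 46.9%, and FOS 49.3%, 28.01%, 63.0% and 89.6%, in H82 control, H82 ORY-1001, H211 control and H211 ORY-1001.

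Over all genes, 1383 were called higher and 1485 lower with the drug in H211. These became 439 and 378 without the 3 libraries with high blood marker sums, which leaves 1 H211 control that is assumed to vary like the others, and 283 and 199 without the 6 with LYZ or MPO. The difference between the drug effects gave 1816 and 1368 without the 3, against 2747 and 2209. Totals without mitochondrial genes moved the median of all genes by 0.13 in the averaged line difference and by 0.16 in controls, and gave 963 higher and 2001 lower in H211. Fits of only 2 groups cannot give the averaged or the difference contrast. The depth is unknown, which limits what can be said of members under 1.

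Replicate numbers did not pair the libraries: over 12 same-numbered pairs the deviations correlated at -0.08 to 0.045, and 1 of 12 libraries correlated best with its own number. With a replicate block, 1192 genes were called higher and 1305 lower in H211, JUN differed between the lines by 2.25 (adjusted p = 3.61e-11) and ATF3 did not pass (adjusted p = 0.0857).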
